A study of Mus musculus with 24 samples.

Results

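The genes of voltage-gated calcium channels, voltage-gated sodium channels and HCN channels were examined in hippocampal RNA sequencing of 24 female mice. Members were the genes whose symbols in the count table begin with Cacna or Cacnb and a digit, or name an Scn gene ending in a or b or an Hcn gene, and that had at least 1 read in every mouse. This gave 31 of the 35 genes with such names, among 46983 genes in the table. They comprised 6 alpha1 subunits of high-voltage-activated calcium channels, 3 of T-type calcium channels, 4 alpha2delta and 4 beta subunits of calcium channels, 6 alpha and 4 beta subunits of sodium channels and 4 HCN subunits. The Cacng genes were not part of the set.

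Calcium channel alpha1 subunits form the pore, through which depolarization admits calcium for transmitter release, dendritic signalling and gene regulation, while alpha2delta and beta subunits set how many channels reach the membrane and how they gate. T-type channels open at more negative voltages than the other classes and drive burst firing. Sodium channel alpha subunits carry the upstroke of the action potential and are anchored and tuned by beta subunits, and HCN channels pass a cation current that is opened by hyperpolarization and modulated by cyclic nucleotides. In hippocampal pyramidal neurons HCN channels are known for damping dendritic input.

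The mice formed 4 groups of 6, on a C57BL/6 background. Fkbp5lox/lox mice, labelled wild type, carry loxP-flanked Fkbp5 alleles and no Cre, and Fkbp5Nex mice carry the same alleles plus a Cre recombinase inserted at the Nex locus (Neurod6), which deletes Fkbp5 from glutamatergic forebrain neurons during embryonic development but leaves the dentate gyrus largely outside the deletion. Within each genotype, 6 mice were reared normally and 6 under early life stress (ELS), with limited bedding and nesting material from postnatal day 2 to 9, and all were sacrificed as adults after behavioural testing, so that every group had that experience. RNA came from punches of dorsal and ventral hippocampus that hold all cell types of the tissue, and for bulk samples of this kind fewer cells of a type and less RNA per cell cannot be told apart.

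Between 18347283 and 26555623 reads per mouse were assigned to genes. Fkbp5, the deleted gene, had 47.65 to 63.44 CPM (read counts scaled to a common library size by TMM) in the 12 Fkbp5lox/lox mice and 8.711 to 26.46 CPM in the 12 Fkbp5Nex mice, so the groups did not overlap (log2 fold change -2.04, adjusted p = 5.75e-12, edgeR's quasi-likelihood test). Of the markers of other regions and cell types that punches could hold, the summed level of 5 tested choroid plexus markers ranged from 25.0 to 4633 CPM between mice, that of 8 dentate gyrus markers from 146.6 to 1019 CPM and that of 9 thalamus markers from 73.95 to 343.2 CPM. The choroid plexus markers Folr1 and Otx2 were below the filter used for testing, which asked for 10 reads in every mouse of at least 1 group. Dentate gyrus markers averaged lower in Fkbp5Nex than in Fkbp5lox/lox mice (difference in mean z-score -1.08, exact permutation p = 0.00361, adjusted p = 0.159 over 44 tests, two-sided), and thalamus markers averaged higher after ELS in Fkbp5lox/lox mice (difference 1.25, exact permutation p = 0.0130, adjusted p = 0.286).

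Transcript levels of all channel subunit genes were first ordered within each subunit class, on the RPKM scale (CPM divided by the annotated exon length in kilobases), which allows genes of different length to be compared. Among the pore-forming subunits of high-voltage-activated calcium channels, Cacna1e (R-type, chromosome 1) was highest at 18.8 ± 2.32 RPKM (SD, n = 24). It was followed by Cacna1b (N-type) at 15.2 RPKM and Cacna1a (P/Q-type) at 10.8 RPKM, the pair that supports most fast transmitter release. The L-type subunits Cacna1c at 7.92 RPKM and Cacna1d at 4.90 RPKM were lower. Each of these genes exceeded the next in 24 of 24 mice. Cacna1f, an L-type subunit known from photoreceptors, was at 0.0654 ± 0.0165 RPKM, with 7 to 21 reads per mouse, and its values carry large counting error.

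The 3 T-type subunits had nearly equal levels, at 7.71 ± 1.42 RPKM for Cacna1h, 6.86 ± 1.44 RPKM for Cacna1i and 6.67 ± 2.20 RPKM for Cacna1g (SD, n = 24). Cacna1h exceeded Cacna1i in 16 of 24 mice, and Cacna1i exceeded Cacna1g in 16 of 24 mice. The mean log2 ratio between neighbours in this order (0.18 ± 0.43 and 0.07 ± 0.56) was smaller than its spread, so the order of the T-type genes is not resolved. Of the auxiliary subunits, the alpha2delta genes ran from Cacna2d1 at 21.7 ± 1.99 RPKM through Cacna2d3 at 11.5 and Cacna2d2 at 2.92 to Cacna2d4 at 0.195 RPKM. Cacna2d1 and Cacna2d2 encode the binding sites of gabapentin. The beta genes ran from Cacnb3 at 45.6 ± 4.23 RPKM through Cacnb1 at 22.3 and Cacnb4 at 12.2 to Cacnb2 at 5.70 RPKM. Both orders held in 24 of 24 mice at every step.

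Of the sodium channel beta subunits, Scn2b was at 65.4 ± 6.02 RPKM and Scn3b at 47.0 ± 6.32 RPKM, while Scn4b, whose product is known for its role in resurgent sodium current, was at 3.48 ± 1.58 RPKM (SD, n = 24). Scn2b exceeded Scn3b in 23 of 24 mice, and Scn3b exceeded Scn4b in all 24. The alpha subunits were led by Scn8a (Nav1.6, the main channel of the mature axon initial segment) at 21.0 ± 1.98 RPKM and Scn1a (Nav1.1, prominent in fast-spiking interneurons) at 12.9 ± 1.93 RPKM. Scn3a, best known from embryonic neurons, was at 5.44 ± 1.02 RPKM. Scn7a, which encodes the sodium-sensing Nax, had 1.46 ± 0.394 RPKM and Scn9a (Nav1.7) 0.729 ± 0.270 RPKM. Scn7a exceeded Scn9a in 23 of 24 mice, and the steps above it held in 24.

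The gene of Nav1.2 appears in the table under its older symbol Scn2a1, which the name rule does not match, so it is not counted among the 31 genes. At 27.4 ± 2.44 RPKM (SD, n = 24) it exceeded Scn8a in 24 of 24 mice, by a mean log2 ratio of 0.39 ± 0.13, and its genotype log2 fold change was 0.02 (standard error, SE, 0.03). Among the HCN genes, Hcn2 was highest at 21.2 ± 4.20 RPKM, ahead of Hcn3 at 3.20 ± 0.505 RPKM. Hcn4, the pacemaker channel of the heart and of thalamic relay neurons, was at 0.177 ± 0.0948 RPKM, and this order held in 24 of 24 mice. Orders on this scale depend on the annotated length, which was 3195 exonic bases for Hcn2 and 6118 for Hcn4, and the annotation used for counting is not given in the sources used here. The 4 genes with matching names that missed the requirement of 1 read in every mouse were Cacna1s (0 to 11 reads), Scn10a (0 to 6), Scn11a (0 to 6) and Scn4a (0 to 4), which are known from skeletal muscle or peripheral sensory neurons.

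**Figure D1:**
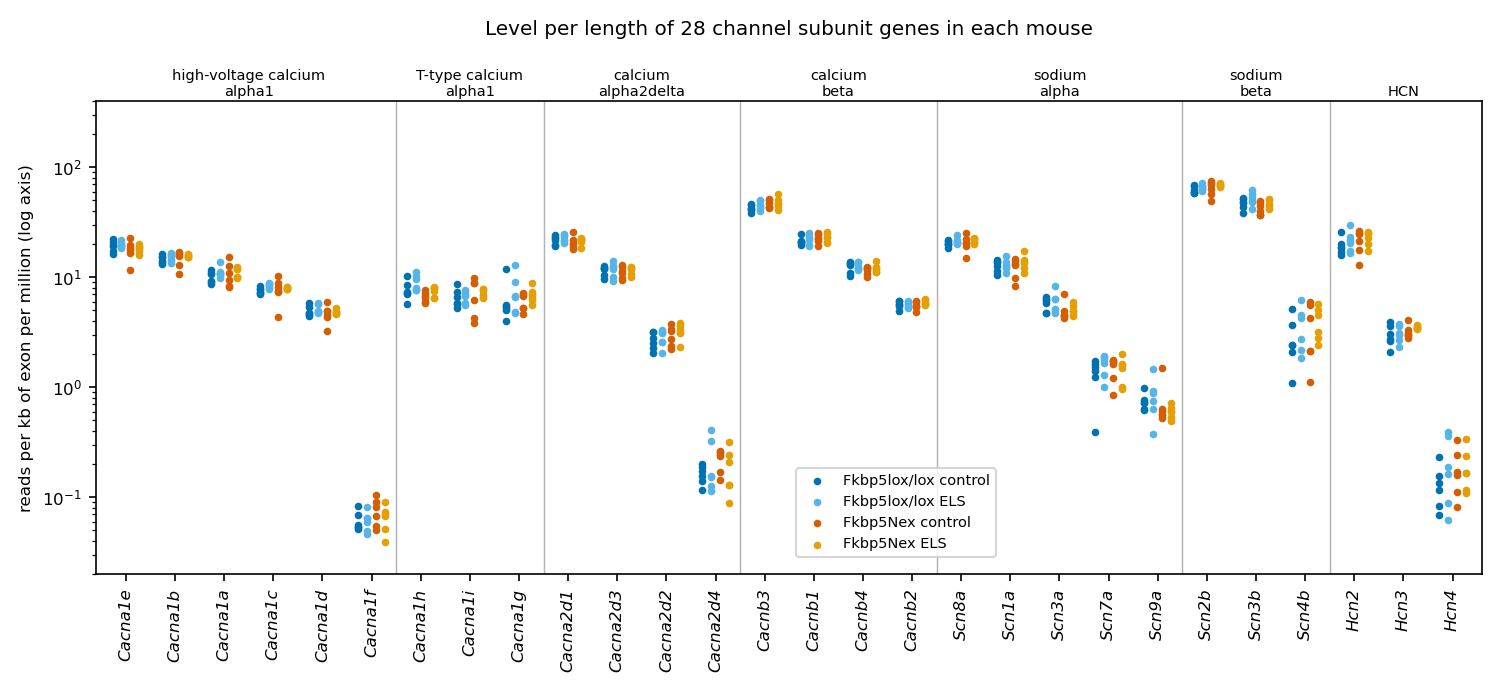
Level of 28 channel subunit genes in each of the 24 mice, as RPKM on a log axis, grouped by subunit class and coloured by group. Of the genes plotted, Scn2b is highest at a mean of 65.4 RPKM and Cacna1f lowest at 0.0654 RPKM, and the colours overlap for all 28.

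Levels also differed in how much they varied between mice of the same group. The SD of log2 CPM within groups had a median of 0.23 over the 31 genes and of 0.18 over all 16209 tested genes. Calcium channel beta subunits were the steadiest class, with SDs of 0.10 for Cacnb2, 0.12 for Cacnb3, 0.13 for Cacnb1 and 0.14 for Cacnb4. Among the most variable were Scn4b with 0.74, Hcn4 with 0.71, Cacna2d4 with 0.53 and Scn7a with 0.53. Hcn4 and Cacna2d4 had mean counts of 23.5 and 39.9 reads, so counting error enters their spread, but Scn4b had a mean of 369.1 reads and Scn7a of 229.4.

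Promoter sequence was taken from RefSeq (GRCm38.p6), whose table held 30 start sites for 21 of the 31 genes. The 250 bases before the start are given for 4 genes with windows free of annotated exons: Scn9a, Hcn4 and Cacna1i because their levels follow different regional or glial markers below, and Cacnb3 as the most abundant calcium channel beta subunit and the holder of an E-box match. Scn9a lies at chr2:66634963-66635212 (minus strand), Hcn4 at chr9:58822699-58822948 (plus strand), Cacna1i at chr15:80286988-80287237 (plus strand) and Cacnb3 at chr15:98632078-98632327 (plus strand). Capitals mark CAGATG, an E-box of the kind bound by basic helix-loop-helix factors.
Scn9a: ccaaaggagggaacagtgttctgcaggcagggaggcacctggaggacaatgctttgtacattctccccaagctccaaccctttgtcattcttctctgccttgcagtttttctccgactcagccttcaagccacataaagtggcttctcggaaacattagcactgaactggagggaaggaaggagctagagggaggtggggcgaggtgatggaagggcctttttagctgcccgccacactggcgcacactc
Hcn4: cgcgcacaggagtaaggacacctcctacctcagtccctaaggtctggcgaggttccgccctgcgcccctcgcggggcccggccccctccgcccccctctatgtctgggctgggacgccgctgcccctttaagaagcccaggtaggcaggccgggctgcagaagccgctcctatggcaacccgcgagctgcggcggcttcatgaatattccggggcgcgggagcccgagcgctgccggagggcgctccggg
Cacna1i: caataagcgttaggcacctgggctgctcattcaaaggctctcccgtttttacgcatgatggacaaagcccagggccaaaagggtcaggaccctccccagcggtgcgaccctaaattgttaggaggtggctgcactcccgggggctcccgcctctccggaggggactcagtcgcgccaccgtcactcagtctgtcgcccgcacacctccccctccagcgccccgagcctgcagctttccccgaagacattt
Cacnb3: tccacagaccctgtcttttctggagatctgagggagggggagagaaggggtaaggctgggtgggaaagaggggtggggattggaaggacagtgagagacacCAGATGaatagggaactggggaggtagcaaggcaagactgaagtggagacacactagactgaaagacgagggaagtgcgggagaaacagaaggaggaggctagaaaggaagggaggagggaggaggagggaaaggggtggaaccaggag
Guanine and cytosine made up 54.4% of the Scn9a window, 71.2% of the Hcn4 window, 62.4% of the Cacna1i window and 56.0% of the Cacnb3 window, and these held 5, 25, 16 and 2 CpG dinucleotides. Another RefSeq start of Cacnb3 has its window at chr15:98634517-98634766 (plus strand), which holds an annotated exon. That window had 70.4% guanine and cytosine, 23 CpG dinucleotides and no CAGATG. Over the 30 promoters the median was 64.2%, against 52.4% over all 32851 promoters of the table. On both strands, CAGATG was found in 4 of the 30 promoters, those of Cacna1c, Cacnb2 and Cacnb3, and in 14.4% of all promoters. The palindromic glucocorticoid response element, AGAACA and TGTTCT with 3 bases between, was in none of the 30 and in 0.00913% of all promoters, and the left part of the neuronal silencer RE1, TTCAGCACC, was in none of the 30 and in 0.301% of all. These are matches of letters within the 250 bases before each start and say nothing about binding.

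The first comparison asked which of these genes differ between Fkbp5Nex and Fkbp5lox/lox mice, as the mean over both rearing conditions. Neurod6, the Cre host gene, was itself lower in Fkbp5Nex mice (log2 fold change -0.90, SE 0.15, adjusted p = 0.0090, edgeR's quasi-likelihood test). Loss of FKBP51, the presence of Cre and the lower Neurod6 cannot be told apart in this contrast. None of the 31 genes differed between Fkbp5Nex and Fkbp5lox/lox mice in edgeR's quasi-likelihood test when the false discovery rate (FDR, by Benjamini-Hochberg over 16209 genes) was held at 0.02, a level that 0.117% of all genes passed. At an unadjusted p below 0.05, 1 member was higher (all genes 5.04%) and 4 were lower (all genes 6.44%), 5 of 31 in all against 11.5% of all tested genes. DESeq2's Wald test also called 0 members, with 6 at an unadjusted p below 0.05. The median log2 fold change was 0.04 over the members and -0.00 over all genes, and 21 members (67.7%) had a positive value against 49.2% of all genes. This direction depends on the covariates. With thalamus and dentate gyrus marker scores in place of the surrogate variables described below, the median was negative in every subunit class. It ran from -0.20 for T-type to -0.0046 for calcium channel beta subunits. For 26 of the 31 genes the 95% confidence interval lay within 0.5 on the log2 scale of no difference. Wider intervals included those of Scn4b and of the low genes Cacna2d4, Cacna1f and Hcn4.

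The member with the smallest p was Scn4b, on chromosome 9. In Fkbp5lox/lox control mice it had 5.482 to 25.70 CPM (median 11.96), and in Fkbp5lox/lox ELS mice 9.189 to 30.67 CPM (median 17.36). Fkbp5Nex control mice had 5.591 to 29.79 CPM (median 15.79) and Fkbp5Nex ELS mice 11.98 to 28.48 CPM (median 19.25). All 4 ranges overlapped over most of their width, and 6 of the 12 Fkbp5Nex mice lay above the mean of the Fkbp5lox/lox mice with the same rearing. With 5 surrogate variables in the model, which stand for variation between mice beyond the groups, the log2 fold change was 0.31 (SE 0.10, 95% interval 0.09 to 0.53, adjusted p = 0.246). It was 0.10 without Fkbp5Nex control mouse 12 and -0.29 when thalamus and dentate gyrus marker scores replaced the surrogate variables, so its size and sign depend on the model. With surrogate variables, the genotype estimate was 0.18 (SE 0.15) within control mice and 0.44 (SE 0.15) within ELS mice. Without them the estimates were 0.33 (SE 0.38) in control and 0.13 (SE 0.37) in ELS mice. With marker scores they were -0.61 (SE 0.29) and 0.04 (SE 0.28), so a larger value after ELS does not hold in every model.

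Of the 3 T-type genes, Cacna1h and Cacna1g had negative genotype estimates with an unadjusted p below 0.05. Cacna1h, on chromosome 17, had 56.15 to 99.63 CPM (median 70.42) in Fkbp5lox/lox control and 75.27 to 108.5 CPM (median 86.73) in Fkbp5lox/lox ELS mice. In Fkbp5Nex mice it had 57.18 to 75.46 CPM (median 64.53) in controls and 62.83 to 79.58 CPM (median 75.57) after ELS. The groups overlapped, and 11 of 12 Fkbp5Nex mice lay below the mean of the Fkbp5lox/lox mice with the same rearing. As many lay below for Cacnb4 (log2 fold change -0.02, SE 0.04) and Scn9a (-0.08, SE 0.10), so this count does not set Cacna1h apart. The log2 fold change of Cacna1h was -0.18 (SE 0.06, 95% interval -0.32 to -0.05, adjusted p = 0.256, edgeR). It ranged from -0.26 to -0.11 over the 30 alternatives, with an adjusted p of at least 0.129. Within control mice it was -0.14 (SE 0.09) and within ELS mice -0.23 (SE 0.09). Exons of Cacna1h overlap those of the protein-coding gene Tpsg1 on the opposite strand, as those of Hcn3 overlap Pklr and those of Cacna1d overlap Chdh. Those of Cacna1a, Cacna2d2, Cacnb1, Cacnb2, Cacnb4 and Scn9a overlap opposite-strand genes that are not annotated as protein-coding. Whether counting used strand is not given in the sources used here.

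Cacna1g, on chromosome 11, had 40.99 to 121.7 CPM (median 54.49) in Fkbp5lox/lox control and 47.83 to 132.0 CPM (median 67.94) in Fkbp5lox/lox ELS mice. Fkbp5Nex controls had 47.01 to 72.65 CPM (median 61.41) and Fkbp5Nex ELS mice 56.59 to 90.74 CPM (median 67.48). The highest values belonged to Fkbp5lox/lox control mouse 44 and Fkbp5lox/lox ELS mouse 72, and the remaining mice of all groups overlapped. The genotype log2 fold change, as the mean over both rearing conditions, was -0.22 (SE 0.09, adjusted p = 0.355). It was -0.09 without mouse 72, -0.09 without surrogate variables and -0.44 without Fkbp5Nex control mouse 12. Within control mice the estimate was -0.025 (SE 0.13) and within ELS mice -0.42 (SE 0.13, adjusted p = 0.597, edgeR). Without surrogate variables these 2 estimates were -0.05 and -0.13. The embryonic sodium channel gene Scn3a (log2 fold change -0.09, SE 0.04, adjusted p = 0.375) and the beta subunit gene Scn3b (-0.08, SE 0.04, adjusted p = 0.424) also had negative estimates. Both genes tracked dentate gyrus markers within groups (r = 0.80 and 0.79, given below), and those markers averaged lower in Fkbp5Nex mice as described above. With thalamus and dentate gyrus marker scores in place of the surrogate variables, the genotype estimates were 0.05 (SE 0.07) for Scn3a and 0.01 (SE 0.05) for Scn3b, so both turned sign, and without either kind of covariate they were -0.22 (SE 0.09) and -0.16 (SE 0.07). Because the dentate gyrus score itself differed with genotype, fitting it also takes out variation that goes with genotype. The part of dentate gyrus content in these estimates was not tested.

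Abundant genes of the classes differed little between genotypes. Means of Fkbp5lox/lox control, Fkbp5lox/lox ELS, Fkbp5Nex control and Fkbp5Nex ELS mice, in this order, were 42.7, 45.4, 46.5 and 47.9 RPKM for Cacnb3, with SDs of 2.76 to 5.47. They were 20.4, 21.4, 20.5 and 21.5 RPKM for Scn8a, with SDs of 1.21 to 3.42. For both genes the ranges of all groups overlapped. Hcn2 had means of 19.3, 21.6, 21.4 and 22.7 RPKM with SDs of 3.33 to 5.20. Cacna2d1 had means of 21.9, 22.6, 20.9 and 21.3 RPKM with SDs of 1.53 to 2.61. Cacna1e had means of 19.3, 19.8, 17.8 and 18.1 RPKM with SDs of 1.18 to 3.65. None of these differences reached an unadjusted p of 0.05.

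**Figure D2:**
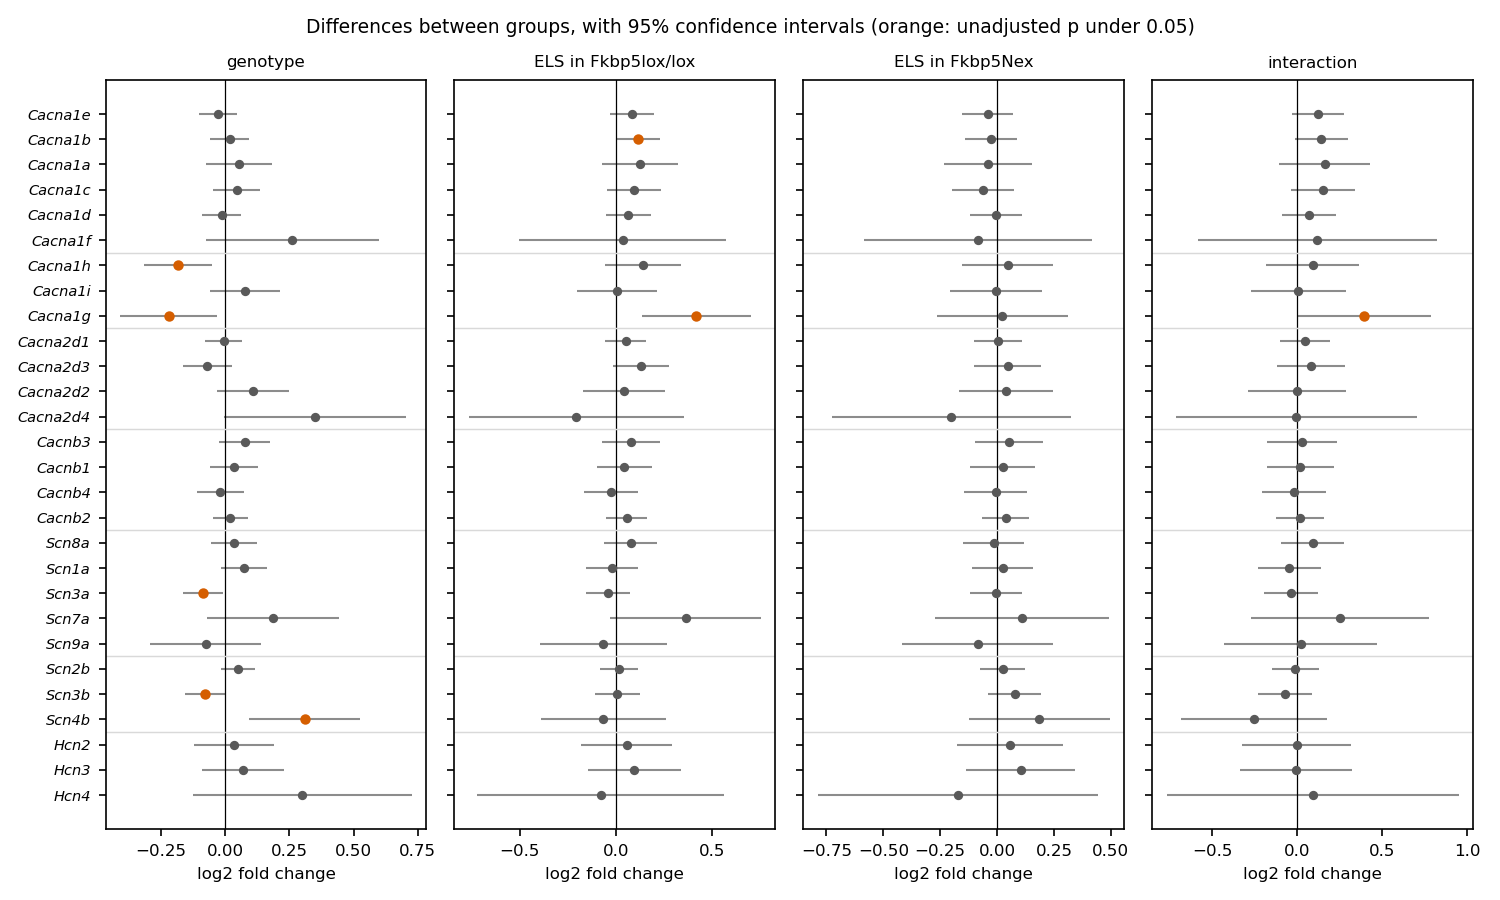
Log2 fold change of 28 channel subunit genes (points) with its 95% confidence interval (lines) for Fkbp5Nex minus Fkbp5lox/lox, for ELS minus control in each genotype, and for the ELS effect in Fkbp5lox/lox minus that in Fkbp5Nex, with a separate scale for each panel. Orange points have an unadjusted p below 0.05, which applies to 5, 2, 0 and 1 genes, and none passed an FDR of 0.02.

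The second comparison asked what ELS left behind in adult Fkbp5lox/lox mice. None of the 31 genes passed an FDR of 0.02, as did none of the 16209 genes (0%), in edgeR's quasi-likelihood test. At an unadjusted p below 0.05, 2 members were higher and 0 lower, against 2.85% higher and 2.01% lower among all genes (4.86% together), and DESeq2 also had 2 at this level. The median log2 fold change was 0.05 over the members and 0.00 over all genes. All 6 high-voltage-activated alpha1 genes had positive values, from 0.03 for Cacna1f to 0.12 for Cacna1a, as they did without surrogate variables and with marker scores, and only Cacna1b among them had an unadjusted p below 0.05. For 25 of the 31 genes the 95% interval lay within 0.5 on the log2 scale of no difference.

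Cacna1g had the largest estimate after ELS, with a log2 fold change of 0.42 (SE 0.14, 95% interval 0.13 to 0.70, adjusted p = 0.954). Of the 6 ELS mice 4 lay above the control mean, and the values of mice 44 and 72 stand at the top of their groups. Without mouse 72 the estimate was 0.12, and over all alternatives it ranged from 0.12 to 0.55. Cacna1b, the N-type gene, had 131.3 to 161.3 CPM (median 145.7) in control and 133.9 to 166.9 CPM (median 154.6) in ELS mice, which overlap almost completely (log2 fold change 0.12, SE 0.055, adjusted p = 0.954). Its estimate was 0.08 without Fkbp5lox/lox ELS mouse 56 and 0.07 without surrogate variables. Scn7a had 2.878 to 12.70 CPM (median 10.72) in control and 7.351 to 14.07 CPM (median 12.71) in ELS mice. The lowest control value was again that of mouse 44, and the log2 fold change of 0.36 (SE 0.19, adjusted p = 0.954) was 0.10 without this mouse and 0.08 with marker scores in place of the surrogate variables.

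The same question was asked of ELS in Fkbp5Nex mice. None of the 31 genes passed an FDR of 0.02 (0% of all genes) and 0 of 31 had an unadjusted p below 0.05, against 2.8% of all tested genes (1.57% higher and 1.23% lower), in edgeR's quasi-likelihood test and likewise 0 in DESeq2's. Estimates ran from -0.20 for Cacna2d4 to 0.19 for Scn4b. Scn3b had 199.4 to 270.5 CPM (median 230.7) in control and 228.2 to 281.6 CPM (median 248.5) in ELS mice, which overlap, with 5 of 6 ELS mice above the control mean. The log2 fold change was 0.08 (SE 0.06) for Scn3b and 0.19 (SE 0.15) for Scn4b (adjusted p = 0.9996 for both, edgeR). All 6 high-voltage-activated alpha1 genes had negative values here, from -0.08 for Cacna1f to -0.01 for Cacna1d, each less than 1 SE from no difference. These signs depend on the covariates, since 5 of the 6 were positive, all but Cacna1f, both without surrogate variables and with marker scores.

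The third comparison asked whether the ELS effect depends on genotype, as the ELS effect in Fkbp5lox/lox minus that in Fkbp5Nex mice. No member passed an FDR of 0.02 (0% of all genes), and 1 of 31 had an unadjusted p below 0.05 against 4.02% of all tested genes in edgeR's quasi-likelihood test (1.94% positive and 2.07% negative), with 0 in DESeq2's. That gene was Cacna1g, with a difference of 0.39 (SE 0.19, 95% interval 0.00 to 0.78, adjusted p = 0.9995). It was 0.11 without mouse 72, 0.08 without surrogate variables and 0.21 with marker scores in their place. Cacna1b (0.14, SE 0.07) and Cacna1c (0.15, SE 0.09) came next, each with an adjusted p of 0.9995.

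The estimates for Cacna1b and Cacna1c moved with the model. Cacna1c had 149.0 to 178.0 CPM (median 159.8) in Fkbp5lox/lox control mice and 166.5 to 186.6 CPM (median 178.5) after ELS. In Fkbp5Nex mice it had 93.06 to 219.7 CPM (median 165.8) in controls and 165.3 to 172.7 CPM (median 167.4) after ELS. All 6 Fkbp5lox/lox ELS mice lay above their control mean, and so did all 6 Fkbp5Nex ELS mice, although the model's estimate for the latter was -0.06. Fkbp5Nex controls held both the highest and the lowest value of the 24 mice. The difference for Cacna1c was 0.09 without Fkbp5Nex control mouse 54 and 0.03 with marker scores, and that for Cacna1b was -0.02 without surrogate variables. Across the high-voltage-activated alpha1 genes all 6 differences were positive, with a median of 0.13 against 0.00 over all genes. Without surrogate variables 4 were positive and 2 negative (Cacna1b and Cacna1d) with a median of 0.06, and with marker scores 6 were positive with a median of 0.04. These 6 values come from the same mice and model and are not independent of each other.

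Groups did not separate for any member. In each of the 4 pairwise comparisons of groups, 0 of 31 genes had ranges that did not overlap, where 0.16% of all tested genes had none for genotype in control mice, 0.173% for genotype in ELS mice, 0.0925% for ELS in Fkbp5lox/lox and 0.0679% for ELS in Fkbp5Nex mice.

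**Figure D3:**
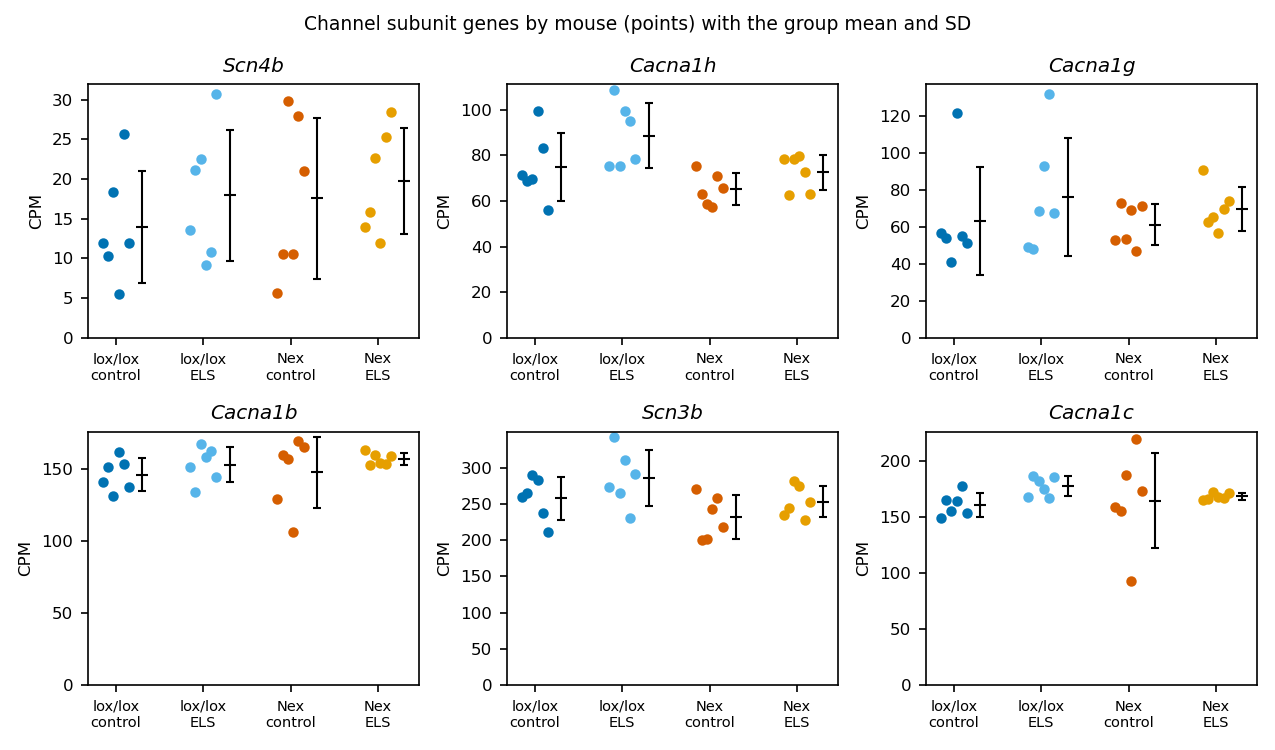
CPM of 6 named channel genes in each mouse by group, with the group mean and SD (black), from axes that start at 0. Mouse 44 (121.7 CPM) and mouse 72 (132.0 CPM) stand above the other Fkbp5lox/lox mice for Cacna1g, and the groups overlap in every panel.

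Variation between mice of the same group was then related to markers of regions and cell types, since punches can hold different amounts of each. For each gene, the deviation of log2 CPM from its group mean was correlated with that of the mean z-score of each of 7 marker lists over the 24 mice, with 100000 permutations within groups and Benjamini-Hochberg adjustment over 217 relations. All measures share the same libraries. Of these relations 34 had an adjusted p below 0.05 for Pearson's r, 20 positive and 14 negative. The share of all tested genes that would pass was not computed, here or for the lists added below. Such counts therefore do not show a trait particular to these genes. The median absolute r of the members was 0.48 for oligodendrocyte markers, against 0.28 over all tested genes, 0.41 against 0.30 for dentate gyrus and 0.16 against 0.18 for vascular markers. No batch is given in the labels, so no relation could be repeated within batches.

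Of the sodium channel genes, Scn3a, Scn3b and Scn9a followed dentate gyrus markers. Scn3a (r = 0.80, Spearman's rho = 0.73, permutation p = 0.00016, adjusted p = 0.00410 for r and 0.00353 for rho) and Scn3b (r = 0.79, rho = 0.81, permutation p = 0.00002, adjusted p = 0.00217 and 0.00253) were higher in mice with more dentate gyrus marker RNA. Without the 2 mice farthest from the median marker score, r was 0.62 and 0.73. Scn9a had r = 0.72 (rho = 0.61, permutation p = 0.00355, adjusted p = 0.0285 and 0.0343), which dropped to 0.40 without those mice and therefore rests largely on them. Fkbp5lox/lox ELS mouse 8 and Fkbp5Nex control mouse 12 had the 2 highest dentate gyrus sums, 1019 and 740.7 CPM. They also had the highest Scn3a values, 104.3 and 87.05 CPM, and the highest Scn9a values, 18.73 and 19.18 CPM. Scn3a and Scn9a share 2.22% and 1.44% of their exonic 100-base stretches, mainly with each other, so a small share of reads could be split between them.

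In the opposite direction, Cacna1i was lower where dentate gyrus markers were higher (r = -0.63, rho = -0.67, permutation p = 0.00251, adjusted p = 0.0227 and 0.0235, r = -0.52 without the 2 farthest mice). Cacna2d2 was negative too (r = -0.59, rho = -0.60, permutation p = 0.00467, adjusted p = 0.0338 and 0.0403).

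Thalamus markers were followed by genes of low level. Cacna2d4 had r = 0.81 (rho = 0.80, permutation p = 0.00004, adjusted p = 0.00217 for both), and r = 0.72 without the 2 farthest mice. Hcn4 had r = 0.68 (rho = 0.64, permutation p = 0.00222, adjusted p = 0.0227 and 0.0346) and Scn4b r = 0.66 (rho = 0.71, permutation p = 0.00103, adjusted p = 0.0140 and 0.00832). For Hcn4 and Cacna2d4 the highest values of all 24 mice, 2.380 and 3.850 CPM, were in Fkbp5lox/lox ELS mice 78 and 8, which also had the 2 highest thalamus sums of 314.8 and 343.2 CPM.

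Scn4b, the gene with the largest within-group spread, was tied most closely to oligodendrocyte markers (r = 0.89, rho = 0.86, permutation p = 0.00002, adjusted p = 0.00217 for both, r = 0.83 without the 2 farthest mice). Cacna1i (r = 0.78, rho = 0.83, permutation p = 0.00004, adjusted p = 0.00217 and 0.00253), Hcn2 (r = 0.66), Scn7a (r = 0.63), Scn2b (r = 0.62), Scn1a (r = 0.62) and Hcn4 (r = 0.57) were also positive, with adjusted p for r from 0.00217 to 0.0408. For Scn2b, Scn1a and Hcn4 the adjusted p of rho was above 0.05, between 0.0610 and 0.0796. Scn3a was negative (r = -0.61, adjusted p = 0.0327 for r and 0.0390 for rho, permutation). Oligodendrocyte sums ranged from 1517 CPM in Fkbp5lox/lox control mouse 44, which had the lowest Scn4b and Scn7a values of all mice, to 6845 CPM in Fkbp5Nex control mouse 42, with the second-highest Scn4b value.

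Markers of GABA neurons were followed most closely by Cacna1g (r = 0.74, rho = 0.80, permutation p = 0.00009, adjusted p = 0.00391 and 0.00217, r = 0.72 without the 2 farthest mice). Hcn3 (r = 0.73) and Cacna2d2 (r = 0.70) were also positive. Cacna2d1 was the most negative (r = -0.77, rho = -0.80, permutation p = 0.00017, adjusted p = 0.00410 and 0.00310), followed by Scn3b (r = -0.59) and Cacna1e (r = -0.59). The alpha2delta genes Cacna2d1 and Cacna2d2 thus had opposite signs for the same markers. Cacna1g was also the 1 member with a positive relation to CA1 markers that passed (r = 0.61, rho = 0.67, permutation p = 0.00568, adjusted p = 0.0398 and 0.0224), and mouse 44, its highest control, had the highest CA1 sum, 798.5 CPM, and the second-highest sum of GABA neuron markers, 1045 CPM. Mouse 72, without which the ELS estimate of Cacna1g was 0.12, was not among the 2 highest for either list.

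The remaining CA1 relations were negative, for Cacna2d4 (r = -0.64, rho = -0.61, permutation p = 0.00087, adjusted p = 0.0130 and 0.0240, r = -0.44 without the 2 farthest mice), Scn7a (r = -0.62), Scn4b (r = -0.61) and Scn1a (r = -0.61). Choroid plexus markers were followed by Cacna1i (r = 0.65, rho = 0.71, permutation p = 0.00188, adjusted p = 0.0227 and 0.00835) and were opposed by Scn3a (r = -0.73, rho = -0.74, permutation p = 0.00034, adjusted p = 0.00738 and 0.00716) and Scn3b (r = -0.69). No relation to vascular markers passed, where Cacnb3 had the most positive r (0.56) and Hcn4 the most negative (-0.52).

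**Figure D4:**
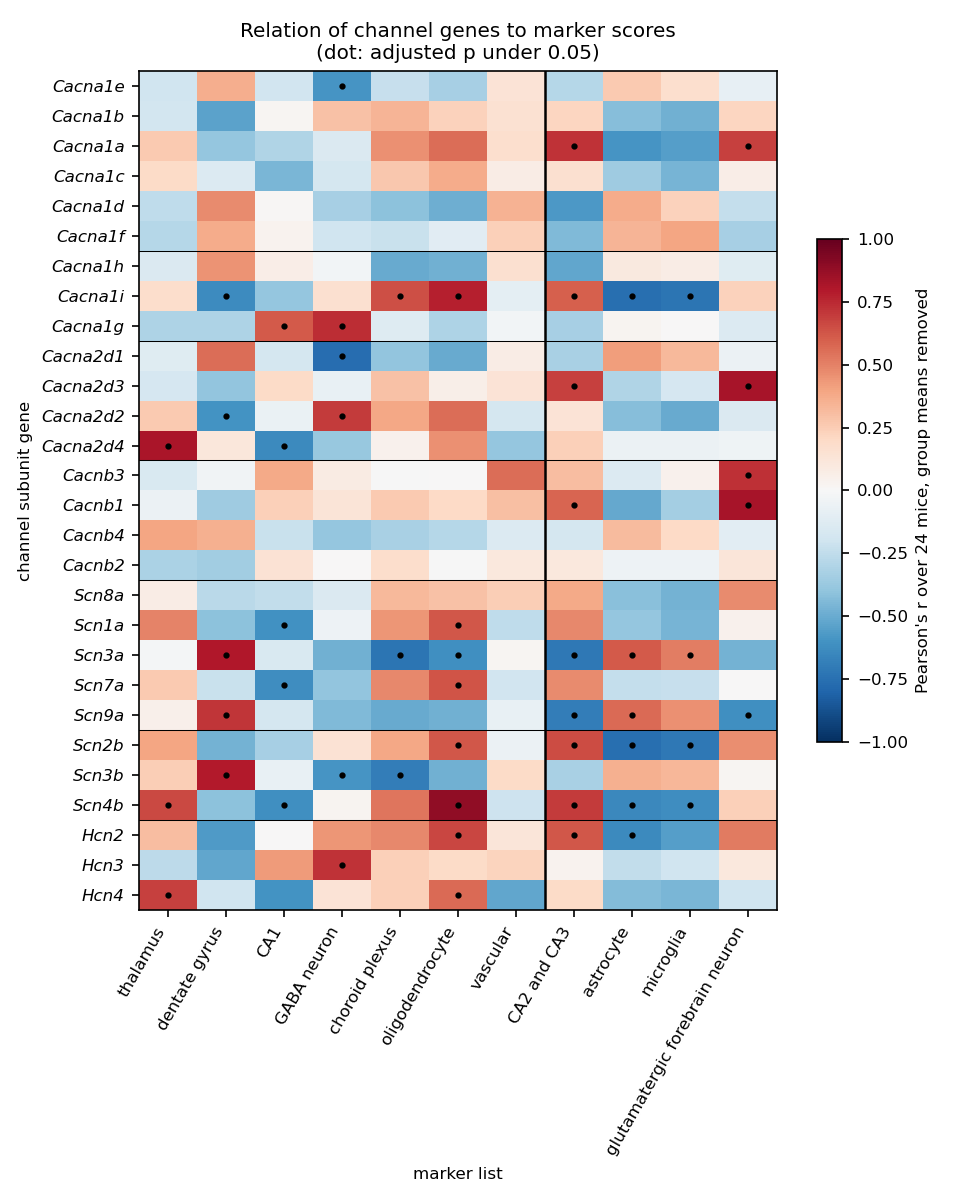
Pearson's r over 24 mice, with group means removed, between 28 channel subunit genes (rows, by class) and each marker score (columns), from blue (-1) to red (1). Dots mark adjusted p below 0.05, 30 for the 7 lists left of the vertical line and 24 for the 4 lists right of it, which were added after the data were seen.

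Another 4 marker lists were added after the data were seen, and 29 of their 124 relations had an adjusted p below 0.05, 16 positive and 13 negative. The median absolute r of the members was 0.20 for glutamatergic neuron markers, below the 0.23 of all tested genes, and 0.38 against 0.32 for CA2 and CA3, 0.39 against 0.29 for astrocyte and 0.39 against 0.27 for microglia markers. Cacna1a, the P/Q-type gene, followed CA2 and CA3 markers (r = 0.72, rho = 0.77, permutation p = 0.00035, adjusted p = 0.00543 and 0.00279, r = 0.72 without the 2 farthest mice), as did Scn4b (r = 0.70, and 0.49 without those mice). Scn3a was the most negative for these markers (r = -0.71). Markers of glutamatergic forebrain neurons, which include the Cre host gene Neurod6, were followed by the auxiliary subunits Cacna2d3 (r = 0.82, rho = 0.86, permutation p = 0.00001, the smallest that 100000 permutations can give, adjusted p = 0.000413 and 0.000827), Cacnb1 (r = 0.82) and Cacnb3 (r = 0.73) and by Cacna1a (r = 0.69), while Scn9a was negative (r = -0.61). For astrocyte and microglia markers Scn3a was the most positive (r = 0.61 and 0.52) and Cacna1i the most negative (r = -0.75 and -0.73). Without the 2 mice farthest from each median score, r was 0.45 and 0.36 for Scn3a and -0.66 and -0.62 for Cacna1i. Mouse 12 had the highest astrocyte and microglia sums, 7680 and 377.2 CPM, and the second-highest dentate gyrus sum. Leaving it out changed the genotype estimates of Scn4b and Cacna1g, but so did leaving out other mice. Scn4b was at 0.41 without Fkbp5lox/lox control mouse 28, and Cacna1g at -0.09 without Fkbp5lox/lox ELS mouse 72. The part of marker content in these estimates was not tested.

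**Figure D5:**
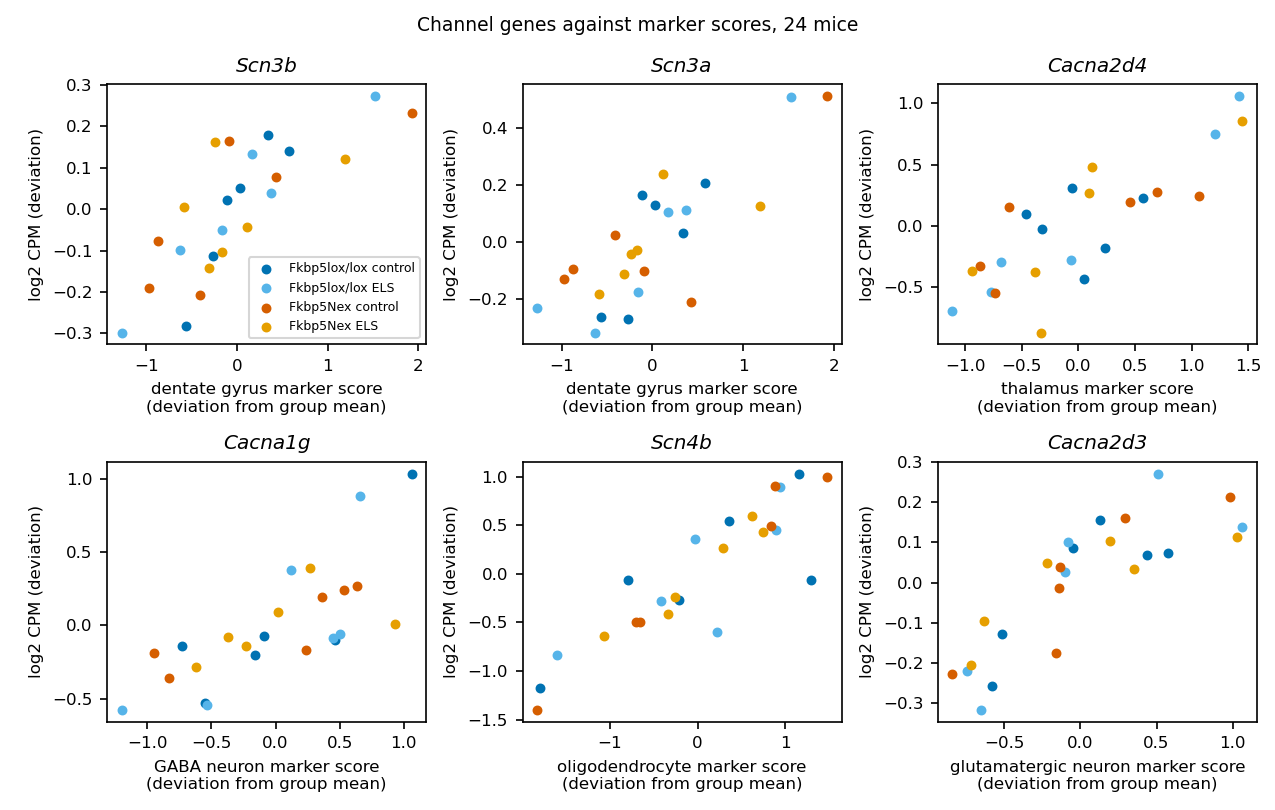
Deviation of log2 CPM from the group mean against that of a marker score for 6 channel genes in 24 mice, coloured by group. Scn4b against oligodendrocyte markers (r = 0.89) and Cacna2d3 against glutamatergic neuron markers (r = 0.82) form the tightest bands, and for Scn3a 2 mice at the right carry much of the slope (r = 0.80 with and 0.62 without them).

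Some members varied together. Of all 465 pairs, 66 had an adjusted p below 0.05, 54 positive and 12 negative, in a family of tests added after the data were seen. The share among pairs of all tested genes was not computed, so the count does not show a trait particular to these genes. Calcium and sodium channel pore genes formed tight pairs, with r = 0.87 for Cacna1a and Scn8a (rho = 0.83, permutation p = 0.00001, adjusted p = 0.00233 and 0.00775), the P/Q-type and Nav1.6 genes. Cacna1c and Scn8a also had r = 0.87, which dropped to 0.55 without the 2 farthest mice. The beta subunit genes Cacnb1 and Cacnb3 had r = 0.85 (rho = 0.86, permutation p = 0.00001, adjusted p = 0.00233 and 0.00465), and Cacna2d1 went with the R-type gene Cacna1e (r = 0.84, rho = 0.83, permutation p = 0.00002, adjusted p = 0.00310 and 0.00465).

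Neighbouring genes were among the pairs. Scn3a and Scn9a, in the sodium channel cluster of chromosome 2 that also holds Scn1a, Scn7a and Scn2a1, had r = 0.81 (adjusted permutation p = 0.00814 for r and 0.0220 for rho). Scn2b (chr9:45117782-45130070) and Scn4b (chr9:45138395-45154152), which follow each other on the plus strand in GENCODE vM21 (GRCm38), had r = 0.76 (adjusted permutation p = 0.00894 and 0.0274).

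Genes that act with these channels were examined from 3 lists. None of their 35 tested genes passed an FDR of 0.02 for genotype or for ELS in Fkbp5lox/lox mice. The counts for genotype below stand beside 5.04% of all tested genes higher and 6.44% lower at an unadjusted p below 0.05. Of 7 tested Cacng genes, which encode gamma subunits of calcium channels and AMPA receptor auxiliary proteins, 1 was lower in Fkbp5Nex mice at an unadjusted p below 0.05, Cacng6 (log2 fold change -0.69, SE 0.19, adjusted p = 0.136), and the list's median was -0.01. Of 20 channel partners such as calmodulins, ankyrin G and intracellular fibroblast growth factors, 2 were lower and 0 higher, with the smallest p for Fgf11 (-0.18, SE 0.07, adjusted p = 0.326). Of 8 calcium release genes 1 was higher and 1 lower, the latter being the ryanodine receptor gene Ryr1 (-0.36, SE 0.11, adjusted p = 0.204).

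After ELS in Fkbp5lox/lox mice, the 7 tested Cacng genes had a median estimate of 0.11 against 0.00 over all genes, none with an unadjusted p below 0.05. The smallest p was that of Cacng2, which encodes stargazin (0.13, SE 0.08, adjusted p = 0.955). Among calcium release genes 2 of 8 were higher and 0 lower at an unadjusted p below 0.05, where 2.85% of all tested genes were higher and 2.01% lower. They were the inositol trisphosphate receptor gene Itpr3 (0.69, SE 0.23, adjusted p = 0.954) and Ryr2. Among channel partners no gene reached that level, and Calm2, a calmodulin gene, had the smallest p (-0.07, SE 0.04, adjusted p = 0.954). After ELS in Fkbp5Nex mice the Cacng genes also had a positive median estimate, 0.06 against 0.00 over all genes. There 1 of 7 was higher at an unadjusted p below 0.05, Cacng3 (0.20, SE 0.09, adjusted p = 0.9996, edgeR), where 1.57% of all tested genes were higher.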

How the data were processed

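RNA of 24 female mice was sequenced by a provider that cleaned the reads, aligned them with HISAT2 2.0.5 and counted them per gene with featureCounts 1.5.0-p3, per the labels and the study's methods. What the authors deposited are raw counts, with no normalization. The genome build, the annotation, strandedness and the treatment of multi-mapping reads are not given in the sources used here, so overlapping genes are uncertain. Exon lengths and positions came from GENCODE vM21 (GRCm38), matched by identifier for 46488 of 46983 genes, including all members. The design had foreseen lengths from the count table, which holds none.

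Counts were scaled by TMM, and genes reaching 10 counts in each mouse of some group (16209, with all 31 members) were tested in edgeR 4.0.16 (R 4.3.3) by quasi-likelihood, fitting group means plus 5 surrogate variables from sva 3.50.0, at an FDR of 0.02 with Benjamini-Hochberg adjustment. The groups explained 2.97% to 24.0% of the surrogate variables' variance. The study used DESeq2, here an alternative (1.42.0). Each GEO sample is a separate mouse. Marker scores are mean z-scores of log2 CPM (prior count 2), compared by exact two-sided permutation. Python 3.11.15 (scipy 1.17.1, numpy 2.4.6) served for relations and matplotlib 3.10.9 for figures. The fit and the relation test were checked on simulated data. Members and gene lists were chosen with earlier results of these data known. Full statistics were given, by rule, for members past the FDR or else for the 3 with the smallest p per contrast, levels for members and group values for the highest of a class. Values of 3 members are not reported here, and counts over all 31 include them. Outside that rule, Scn3a and Scn3b in the genotype comparison, Scn2a1 and the member pairs were picked with their values in view. Alternatives were other covariates, size factors, filters, DESeq2, an FDR of 0.05 and leaving out each mouse.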

Additional observations from a re-analysis of the deposited data

Results flagged for a closer look

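In 5 of 112 sets of 6 mice (28 genes in 4 groups), the highest or lowest mouse stood apart from the rest, by a share of the group's range above Dixon's 95% critical value. Chance flags about 1 in 20 such sets. Cacna1g was highest in Fkbp5lox/lox control mouse 44 at 121.7 CPM (group median 54.49), and Scn7a was lowest in the same mouse at 2.878 CPM (median 10.72). Scn3a was highest in Fkbp5Nex control mouse 12 at 87.05 CPM (median 56.99), and so was Scn9a at 19.18 CPM (median 7.541). Cacna1a was highest in Fkbp5lox/lox ELS mouse 56 at 158.5 CPM (median 123.3). The marker sums that went with mice 44 and 12 are given with the relations above, and their part in these values was not tested.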

How the results depend on the processing

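No channel gene passed an FDR of 0.02 in any of the 4 contrasts under any of 31 alternatives, and between 0 and 6 had an unadjusted p below 0.05 for genotype over the 7 alternatives with all mice. Of all genes, 19 were called for genotype. The count was 50 at an FDR of 0.05, 3 without surrogate variables, 3 with thalamus and dentate gyrus marker scores in their place and 70 with DESeq2. Leaving out each mouse in turn gave 2 (without Fkbp5Nex control mouse 12) to 32 (without Fkbp5Nex control mouse 54), with 11 without Fkbp5lox/lox control mouse 28, 8 without mouse 44, 6 without mouse 74 and 11 without Fkbp5Nex ELS mouse 38. For ELS in Fkbp5Nex mice the count of 0 became 1 without a filter and ranged from 0 to 1 on leaving out a mouse (1 without Fkbp5lox/lox ELS mouse 68), and for ELS in Fkbp5lox/lox mice it became 1 with DESeq2. Among other results, directions turned for Scn3a and Scn3b by genotype (0.05 and 0.01 with marker scores), for 5 of the 6 high-voltage-activated alpha1 genes after ELS in Fkbp5Nex mice and for Cacna1d in the difference of ELS effects, as given above. They also turned for the difference of ELS effects of Cacna1b (-0.0195 without surrogate variables), for Scn4b by genotype (-0.29 with marker scores) and for the choroid plexus score after ELS in Fkbp5Nex mice (-0.0243 on DESeq2's vst scale). With marker scores, the median genotype estimate turned from positive to negative in every subunit class but T-type. The cause was not tested. Leaving out a mouse also moved, after ELS in Fkbp5Nex mice, Scn3b (0.02 without Fkbp5Nex control mouse 32 to 0.14 without mouse 54) and Scn4b (0.07 without mouse 54 to 0.29 without mouse 64). All 56 levels under other scalings moved by less than their SD. No paired analysis was possible because mouse numbers are unique to a mouse and shared by no groups, and litter is not given in the labels. Per the study's methods, whole litters were assigned to ELS or control rearing, and the genotypes were littermates. Mice were treated as independent here, so SEs of the ELS contrasts and of their difference could be too small if litters differ. Differences below about 0.5 on the log2 scale could not be bounded in most contrasts for the low genes Hcn4, Cacna2d4 and Cacna1f.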
